A study of Mus musculus with 2 samples.

Results

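Imprinted genes were examined as a list of 32 mouse genes whose transcripts are known to come mainly from a single parental allele. A probe was taken as a probe of a listed gene where its RefSeq accession maps to that gene, and that rule uses no measured value, although the list was drawn up with earlier results of these data known. Of the 32 genes, 30 had a matched probe, and together they held 52 probes, out of 20653 genes with a matched probe on the arrays. H19 and Rian, both maternally expressed noncoding RNAs, had no matched probe and were not analysed here. By textbook knowledge 10 listed genes are maternally expressed (8 with a probe), 18 are paternally expressed, and for 4 (Grb10, Gnas, Inpp5f and Blcap) the expressed allele depends on the transcript or the tissue.

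Genomic imprinting is set in the germ line, where DNA methylation is laid down at control regions on the maternal or the paternal chromosome and is then kept in the cells of the offspring. Most imprinted genes lie in clusters that share such a control region, and a noncoding RNA of a cluster often silences its protein-coding neighbours on the same chromosome. Many of their products set growth, placental function and metabolism, and several act in the pancreatic beta cell, where they bear on insulin production and cell number.

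The RNA came from MIN6 cells, an insulinoma line of a transgenic C57Bl/6 mouse that secretes insulin when given glucose, at passages 15 to 20. A first culture had received a lentivirus with the vector pLVX-IRES-ZsGreen carrying mouse Fto, whose protein removes methyl groups from RNA, and the other had received the empty vector. Both cultures were thus exposed to virus, polybrene and the green fluorescent protein ZsGreen, and fluorescence was checked 48 h after transduction. The comparison asks which transcripts differ when Fto is delivered. There was 1 one-color Agilent array per condition, both on the same slide and read in the same scan, so no difference reported here has a replicate check, and precision is limited by that number of arrays. The treatment tag of the first sample reads FTP overexpression while its source name gives FTO, and the source name was followed.

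The label was first checked on Fto itself (NM_011936). Its quantile normalized intensity was 6280 on the FTO-labelled array and 6007 on the control-labelled array. The log2 difference was 0.06 and its spot error 0.20. This probe thus shows no difference beyond its spot error, and the direction of each difference given here is taken from the labels. Whether the probe reads a stretch that the vector carries was not tested. The spot error is the combined measurement error of both spots from the scanner software's error model, on the log2 scale, and it does not cover the spread between cultures. Over the whole arrays, well above background were 82.0% of 39417 probes of the FTO-labelled and 84.9% of the control-labelled array, where such probes began at unnormalized signals of 13.1 and 10.1. In 6 blocks of the FTO-labelled array and 2 of the control-labelled array, 15% or more of the spots of repeatedly printed, low to middle probes had lost part of their signal. Listed probes with all their spots in such blocks are named as such. Whether each of these probes had lost signal, the bright ones included, was not tested. All 10 beta cell markers examined, such as Ins1, Ins2, Iapp and Pdx1, were well above background on both arrays, with log2 differences from -0.24 (Ins2) to 0.45 (Slc2a2). All 3 markers of other islet hormones, all 4 acinar, all 4 fibroblast and all 3 macrophage markers and 1 of 2 endothelial markers were above background on both arrays as well, with log2 differences from -0.72 (Amy2a5) to 0.97 (Lum), and their part in the results was not tested. In RNA of a whole culture, fewer cells expressing a gene and less RNA per cell cannot be told apart, and the arrays read both parental alleles together.

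DNA methylation at CpG sites carries the imprint, so the promoter sequences were examined, with RefSeq windows on GRCm38.p6 for 27 of the 32 genes. H19, Peg10, Cdkn1c, Impact and Sgce had none. Each window holds 300 bases around a start, most of them upstream. The letters TGCCGC, the core of the methylated motif bound by the imprint-keeping zinc finger protein ZFP57, were searched on both strands, and GCGGCA is the same motif read on the other strand. They stood in 9 of 43 windows (20.9%), in 8 genes, against 3813 of 32851 windows of all genes (11.6%). CpG dinucleotides were present at a median of 0.59 of the number expected from base content, against 0.38 over all windows. Among the 8 maternally expressed genes with a window the median of this ratio was 0.60 over 10 windows, and among the 15 paternally expressed genes it was 0.46 over 25 windows. A match describes the letters only. The letters hold a CpG, and the part of CpG content in the share of windows with a match was not tested. Windows of a gene can overlap, as did those of Mest at chr6:30737800-30738099 and chr6:30737803-30738102, which each held 2 matches. The windows of a few genes follow, with any match in capitals: Mest (chr6:30737800-30738099, + strand), which held 2 matches, Nnat (chr2:157559828-157560127, + strand) and Snrpn (chr7:60005150-60005449, - strand), which held 1 each, and Peg3 (chr7:6730370-6730669, - strand), which held none.
Mest promoter window: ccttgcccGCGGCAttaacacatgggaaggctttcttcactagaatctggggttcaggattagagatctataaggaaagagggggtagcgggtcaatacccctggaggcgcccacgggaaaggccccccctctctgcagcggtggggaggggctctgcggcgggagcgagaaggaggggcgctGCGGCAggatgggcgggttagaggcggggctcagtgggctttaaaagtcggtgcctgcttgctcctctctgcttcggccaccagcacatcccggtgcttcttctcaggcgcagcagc
Nnat promoter window: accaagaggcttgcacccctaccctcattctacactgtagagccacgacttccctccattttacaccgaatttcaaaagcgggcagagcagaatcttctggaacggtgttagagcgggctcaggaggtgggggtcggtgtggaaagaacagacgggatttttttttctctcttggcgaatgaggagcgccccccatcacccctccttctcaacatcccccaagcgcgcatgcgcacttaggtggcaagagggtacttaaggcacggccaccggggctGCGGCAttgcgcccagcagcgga
Snrpn promoter window: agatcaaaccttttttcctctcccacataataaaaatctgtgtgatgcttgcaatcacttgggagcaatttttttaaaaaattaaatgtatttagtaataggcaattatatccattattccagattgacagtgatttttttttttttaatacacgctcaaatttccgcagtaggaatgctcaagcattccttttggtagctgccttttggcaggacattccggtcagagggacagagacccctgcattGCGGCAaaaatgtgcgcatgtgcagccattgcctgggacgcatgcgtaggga
Peg3 promoter window: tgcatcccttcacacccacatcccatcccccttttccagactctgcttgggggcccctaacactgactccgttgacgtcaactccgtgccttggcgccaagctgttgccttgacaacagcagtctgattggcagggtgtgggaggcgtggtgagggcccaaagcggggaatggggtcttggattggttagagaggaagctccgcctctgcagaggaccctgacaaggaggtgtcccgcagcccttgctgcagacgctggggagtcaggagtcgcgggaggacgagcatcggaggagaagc

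The Peg3 window is shown because Peg3 and Usp29 are read in opposite directions from nearly the same start. Their windows shared 263 bases (chr7:6730370-6730632), and their log2 differences were 0.28 for Peg3 and 0.13 for Usp29, each with a spot error of 0.20, which Usp29 did not exceed.

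Several of the listed transcripts also carry miRNA hairpins. RefSeq places 10 hairpins within Mirg, 3 within Rian, and 1 each within H19, Meg3, Igf2, Mest and Usp29. The arrays read the host transcripts, so a host's value says nothing direct about the mature miRNA. Mature sequences are shown for Mest (miR-335-5p, chr6:30741314-30741336, + strand), for Igf2 (miR-483-3p, chr7:142654932-142654952, - strand) and for a pair of Mirg miRNAs that share their seed (miR-453, chr12:109735669-109735692, and miR-496a-5p, chr12:109739132-109739152, both + strand), with the seed, bases 2 to 8, in capitals.
mmu-miR-335-5p: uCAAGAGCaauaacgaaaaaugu
mmu-miR-483-3p: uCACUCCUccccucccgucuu
mmu-miR-453: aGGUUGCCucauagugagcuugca
mmu-miR-496a-5p: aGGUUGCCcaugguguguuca
MiR-335 is thus read from a host whose intensity hardly differed between the arrays, and miR-483 from a host that was lower on the FTO-labelled array by more than its spot error, as described with the values of Mest and Igf2.

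All 30 genes with a matched probe were well above background on both arrays, where 85.9% of all genes with a matched probe were. At the level of probes, 51 of 52 were above background on both, and the remaining probe, of Peg10, was so on neither. Genes of both parental classes were therefore detected, 8 maternally and 18 paternally expressed, together with the 4 dependent ones. Grb10 passed at a signal before normalization of 25.3 on the FTO-labelled array and 31.9 on the control-labelled array, above the lowest signals that count as well above background on those arrays. Since probes differ in how strongly they bind, the intensity of a gene was not set against that of another.

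**Figure D1:**
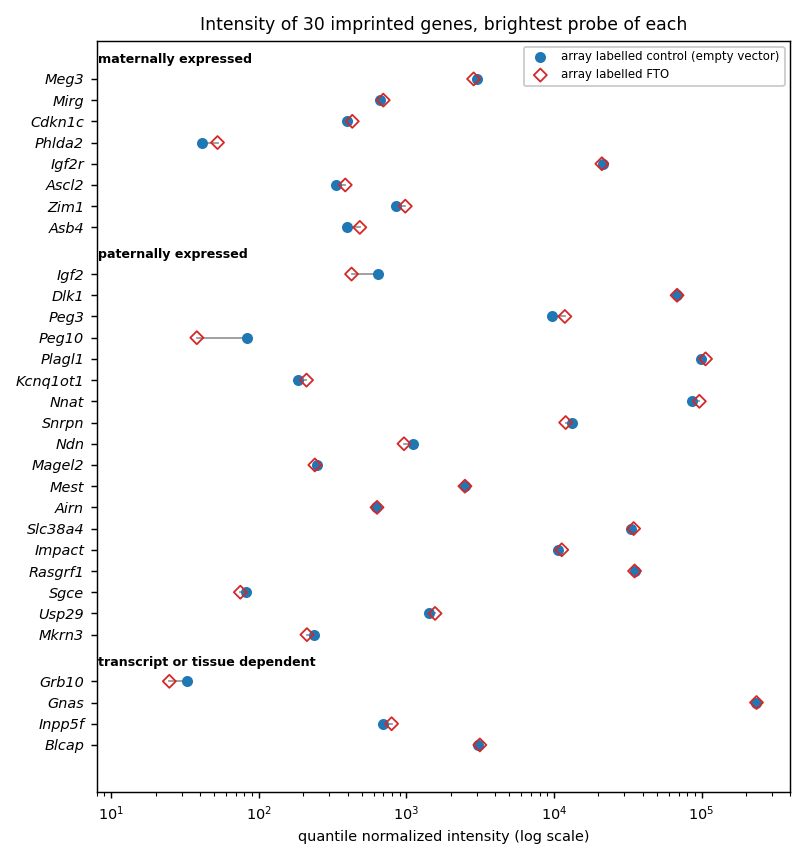
Quantile normalized intensity on a log axis (horizontal) of the brightest probe of each of 30 imprinted genes (rows, grouped by expressed allele), with filled circles for the control-labelled array and open diamonds for the FTO-labelled array, 1 array each and so without error bars. The pair of symbols overlaps or nearly so for most genes, and lies farthest apart for Peg10 (38.1 and 83.3) and Igf2 (425 and 645).

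Differences of the listed genes between the arrays were mostly small. For each gene the brightest probe stands for it here, and differences are log2 of the normalized intensity on the FTO-labelled array minus that on the control-labelled array. The median difference over the 30 genes was 0.03, with quartiles of -0.06 and 0.16, beside a median of 0.006 and quartiles of -0.12 and 0.13 over all 18513 genes tested (89.6% of those with a matched probe), which passed background on 1 array or both. Of the 30 genes, 28 lay within 0.5 of 0, all but Peg10 and Igf2. Few of all genes tested, 6.63%, had a difference at least as large in size as that of Igf2. A single gene, Peg10, differed by more than 2-fold, where 2.68% of all genes tested did, or 1.23% of those above background on both arrays. Peg10 was lower, as were 1.6% of all genes tested, and no listed gene was higher by that much, against 1.09% of all. The difference was larger than the spot error for 8 genes, 5 of them higher in the FTO-labelled culture and 3 lower, where 28.6% of all genes tested passed that mark. Above 0 lay 19 of the 30 genes, where 51.6% of all genes did.

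**Figure D2:**
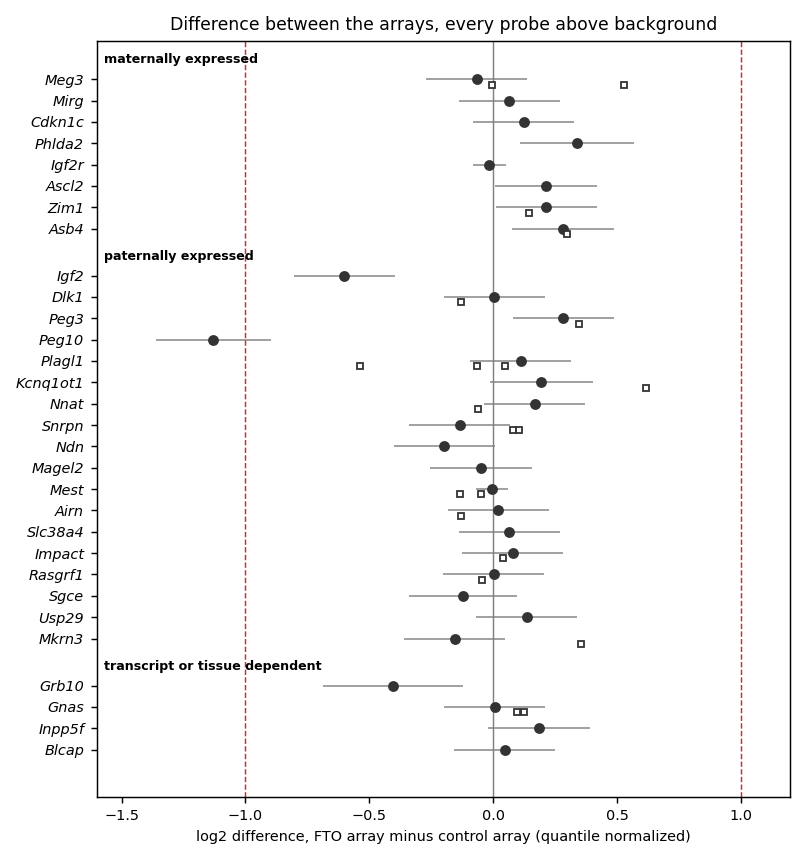
Log2 difference, FTO-labelled minus control-labelled array (horizontal), for every probe of the imprinted genes above background, with filled circles for the brightest probe of a gene with its spot error as a bar, open squares for further probes, and dashed lines at a 2-fold difference. Peg10 alone lies past a dashed line, at -1.13, while open squares of Meg3, Plagl1, Kcnq1ot1 and Mkrn3 lie well away from the circle of the same gene.

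Peg10 and Igf2, both paternally expressed, held the largest differences of the list at the brightest probe. Grb10 passed Igf2 in size under scaling at the 75th percentile, and Kcnq1ot1 did with the most different probe of a gene or without blocks of lost signal. Peg10 encodes a protein derived from a retrotransposon that the placenta needs to form. Its normalized intensity was 38.1 on the FTO-labelled array and 83.3 on the control-labelled array. It was 2.19-fold lower, or -1.13 on the log2 scale, against a spot error of 0.23. The signal was low on both arrays, and among 1582 genes of like signal, within 0.5 of its mean log2 intensity, 3.03% differed by more than 2-fold. Under 10 other ways of processing, of which 3 (the background filters and the floor) leave every listed gene as it is, the difference ran from -1.42 to -0.43. The smallest size, -0.43, came from normexp background correction with an offset of 50, under which no gene of the list passed 2-fold. The other Peg10 probe read 2.50 and 3.37, not well above background on either array, so the difference rests on 1 probe.

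Igf2 encodes the insulin-like growth factor that drives fetal growth and is also made by beta cells. Its probe (NM_010514) read 425 on the FTO-labelled array and 645 on the control-labelled array. It was 1.52-fold lower, or -0.60 on the log2 scale against a spot error of 0.20, and ranged from -0.68 to -0.47 over the other ways of processing. Before normalization it was also lower on the FTO-labelled array, 480 against 572, although the median signal of all spots was higher there, 292 against 237. Among 1063 genes of like signal 1.98% had a difference as low or lower. Genes that act on the same growth axis stood as follows. Igf2r, the maternally expressed receptor that clears IGF2 by taking it to lysosomes, read 21132 and 21373, a log2 difference of -0.02. Grb10, an adaptor that restrains the insulin and IGF receptors, read 24.8 and 32.8, a difference of -0.40 with a spot error of 0.28. Grb10 was the third gene lower by more than its spot error, at a low signal and over a range of -0.76 to -0.15 under the other ways of processing.

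Of the cluster around Kcnq1, the list holds 1 paternally expressed noncoding RNA and 3 maternally expressed genes. That RNA is known to silence the 3 genes on the paternal chromosome, and all 4 listed genes lay above 0. Kcnq1ot1, the noncoding RNA, read 211 on the FTO-labelled array and 184 on the control-labelled array, a difference of 0.19 that is within its error of 0.21. That spot lay in a block of lost signal on the control-labelled array, and the other Kcnq1ot1 probe, outside such blocks, read 108 and 70.5, a difference of 0.62 with an error of 0.21. Cdkn1c, an inhibitor of cyclin-dependent kinases that holds back beta cell division, read 430 and 395, a difference of 0.12 that is within its error of 0.20. Phlda2, which restrains placental growth, read 52.6 and 41.6, the highest difference among the genes' brightest probes at 0.34 with an error of 0.23, although its spot lay in a block of lost signal on the FTO-labelled array. Ascl2, a transcription factor of the trophoblast and of intestinal stem cells, read 386 and 333, a difference of 0.21 against an error of 0.20. These 4 differences stayed above 0 in the 10 other ways of processing, with 3 of the genes left when blocks of lost signal were dropped, but shrank to between 0.03 and 0.11 when the arrays were scaled at the 75th percentile in place of quantile normalization. The silencer and these 3 neighbours lay above 0, as did 51.6% of all genes tested, and a link between them was not tested. Other genes of this cluster, from the separate list of imprinted genes below, lay on both sides of 0. Kcnq1 (0.29), Slc22a18 (0.12), Cd81 (0.07) and Osbpl5 (0.06) lay above, and Tspan32 (-0.34), Nap1l4 (-0.16), Th (-0.13) and Tssc4 (-0.07) below. Kcnq1 and Tspan32 exceeded their spot errors of 0.20. Spots of Kcnq1, Nap1l4 and Tssc4 lay in blocks of lost signal.

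In the cluster around Peg3, all 3 listed genes, Peg3, Usp29 and Zim1, lay above 0. Peg3, a paternally expressed zinc finger protein, read 11851 on the FTO-labelled array and 9738 on the control-labelled array, a difference of 0.28 with an error of 0.20. A further Peg3 probe, in a block of lost signal on the FTO-labelled array, gave 0.35. Usp29, named for the ubiquitin-specific proteases, read 1565 and 1426, a difference of 0.13 that is within its error of 0.20. Zim1, a maternally expressed zinc finger protein, read 984 and 849, a difference of 0.21, and 0.14 at its other probe. The listed paternally and maternally expressed genes therefore shared a sign, and all 3 stayed above 0 in the 10 other ways of processing, between 0.10 and 0.35. Zim3, of the same cluster but from the separate list of imprinted genes below, lay below 0. Its difference was -0.42 with an error of 0.21, at signals before normalization of 235 and 259. The size was 1.22-fold for Peg3 and 1.16-fold for Zim1.

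In the Dlk1-Meg3 cluster the differences of the 3 listed genes with a probe were near 0. Dlk1, a membrane protein of the Notch ligand family that is paternally expressed, read 68267 on the FTO-labelled array and 68040 on the control-labelled array, a difference of 0.005 in a block of lost signal, and -0.13 at its other probe. Meg3, a maternally expressed noncoding RNA that is made in beta cells, read 2857 and 2990, a difference of -0.07. Its other probes gave -0.003 and 0.53, and the probe with 0.53 (NR_003633, 115 against 79.8) lay in a block of lost signal. Mirg, the noncoding host of the 10 hairpins above, read 698 and 667, a difference of 0.06. Scaling at the 75th percentile put all 3 genes slightly below 0, from -0.09 to -0.002. None of these 3 listed genes differed by more than its spot error at its brightest probe. Dio3 and Rtl1, of the same cluster, belong to the separate list of imprinted genes below. Dio3 differed by -0.18 with an error of 0.30, and Rtl1, which exceeded its spot error, is described with that list.

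The 4 listed genes of the Prader-Willi region are all paternally expressed, and at their brightest probes all 4 lay below 0. Snrpn, a protein of small nuclear ribonucleoproteins, read 12007 on the FTO-labelled array and 13178 on the control-labelled array, a difference of -0.13, whereas its other probes gave 0.08, in a block of lost signal on the FTO-labelled array, and 0.10. Ndn, a growth-restraining protein of the MAGE family, read 964 and 1105, a difference of -0.20. Its relative Magel2, which acts in sorting of membrane proteins, read 240 and 248, a difference of -0.05. Mkrn3, a ubiquitin ligase that restrains the onset of puberty, read 212 and 236, a difference of -0.16, and 0.36 at its other probe, in a block of lost signal. None of the 4 differences exceeded its spot error. With the mean of all probes of a gene 2 lay above 0 and 2 below, and with the probe of largest difference 1 lay above and 3 below, so the shared sign depended on the choice of probe. Of the separate list of imprinted genes below, Peg12 of this region differed by -0.45 with an error of 0.24. Ube3a and Atp10a beside it differed by 0.18 and 0.04, within their errors of 0.20, both in blocks of lost signal.

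In the cluster of Peg10 its neighbours lay closer to 0. Sgce, epsilon-sarcoglycan of the membrane complex that anchors the cytoskeleton, is paternally expressed from the same control region and read 75.1 on the FTO-labelled array and 81.7 on the control-labelled array, a difference of -0.12 with an error of 0.22, and -0.37 under scaling at the 75th percentile. Asb4, a maternally expressed subunit of ubiquitin ligases, read 484 and 398, a difference of 0.28 with an error of 0.20. The Asb4 probe lay in a block of lost signal, but the other Asb4 probe, outside such blocks, gave 0.30. Both Asb4 probes were thus higher on the FTO-labelled array, on the other side of 0 from Peg10. Airn, the paternally expressed noncoding RNA that silences Igf2r, read 633 and 624, a difference of 0.02, and -0.13 at its other probe, in a block of lost signal on the FTO-labelled array, beside the -0.02 of Igf2r.

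Further genes of known function in beta cells or in growth differed by less than the spot error at their brightest probe. Nnat, a small protein of the endoplasmic reticulum that aids processing of preproinsulin, read 96672 on the FTO-labelled array and 86102 on the control-labelled array, a difference of 0.17, where the spot of the control-labelled array lay in a block of lost signal. The other Nnat probe, outside such blocks, gave -0.06. Blcap, in whose intron Nnat lies, read 3148 and 3049, a difference of 0.05. Plagl1, a zinc finger transcription factor whose human counterpart is overexpressed in transient neonatal diabetes, read 106453 and 98602, a difference of 0.11. Its further probes gave -0.07, 0.05 (in a block of lost signal on the FTO-labelled array) and -0.54, the last from 455 against 661, so the probes of Plagl1 spanned 0.65, the widest range of the list. Gnas, the locus of the stimulatory G protein alpha subunit that couples hormone receptors to cyclic AMP, read 235701 and 234613, a difference of 0.007, and 0.10 and 0.13 at the probes of NM_019690 and NM_201617. Under scaling at the 75th percentile Gnas moved to -0.34 and under cyclic loess to -0.22.

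The remaining genes lay close to 0. Mest, an enzyme of the hydrolase fold family, read 2495 on the FTO-labelled array and 2505 on the control-labelled array, a difference of -0.006, and -0.05 and -0.14 at its other probes. Rasgrf1, an exchange factor that activates Ras, read 35198 and 35159, a difference of 0.002, and -0.05 at its other probe. Slc38a4, an amino acid transporter, read 34676 and 33157, a difference of 0.06. Impact, an inhibitor of the amino acid sensor GCN2, read 11298 and 10690, a difference of 0.08, with 0.04 at its other probe. Inpp5f, a phosphoinositide phosphatase, read 795 and 699, a difference of 0.19 with an error of 0.20. In these genes the intensity was nearly the same on both arrays, and Inpp5f had the largest difference among them.

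Mest and Igf2r give the tightest measurement, since the array prints their probe 10 times. Before normalization the 10 Mest spots ranged from 2691 to 3043 (median 2866) on the FTO-labelled array and from 2079 to 2281 (median 2201) on the control-labelled array. For Igf2r, after 1 spot flagged as an outlier was left out, 9 spots ranged from 23493 to 26402 (median 24758) and from 17329 to 19204 (median 18443). The spots of the arrays did not overlap, at a log2 difference of 0.39 ± 0.06 (SD over 10 spots) for Mest and 0.43 ± 0.05 (SD over 9 spots) for Igf2r. Quantile normalization, which gives both arrays the same distribution, took these to -0.006 and -0.02, with spot errors of 0.06 and 0.07. Spots of a probe share the culture, so this spread is that of the measurement on an array.

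**Figure D3:**
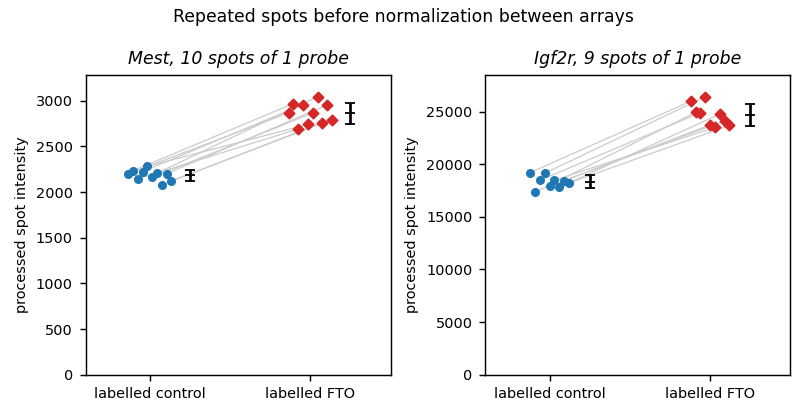
Processed spot intensity (vertical, from 0) before normalization between arrays for the repeated spots of Mest (10 spots) and Igf2r (9 spots), each point a spot, lines joining spots at the same place on the arrays, and black bars the mean ± SD over spots. All spots of the FTO-labelled array lie above all spots of the control-labelled array for both genes, a gap that normalization took to log2 differences of -0.006 and -0.02.

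By expressed allele, the 8 maternally expressed genes had a median difference of 0.17, from -0.07 (Meg3) to 0.34 (Phlda2). Of these 6 lay above 0, where 51.6% of all genes tested did. Of the 8, 4 (Phlda2, Asb4, Zim1 and Ascl2) were higher by more than their spot error and none lower. By that mark 14.7% of all genes tested were higher and 13.9% lower. Zim1 (0.214 against an error of 0.204) and Ascl2 (0.213 against 0.205) passed narrowly. The brightest probes of Phlda2 and Asb4 lay in blocks of lost signal on the FTO-labelled array. Under scaling at the 75th percentile none of the 8 exceeded its spot error, and with normexp 2 did, Phlda2 and Asb4. The 18 paternally expressed genes had a median of 0.003, from -1.13 (Peg10) to 0.28 (Peg3). Of these 10 lay above 0 and 8 below, and 3 exceeded their spot error, with Peg3 higher and Igf2 and Peg10 lower. The dependent genes had a median of 0.03, from -0.40 (Grb10) to 0.19 (Inpp5f). The ranges of the maternal and paternal classes overlapped, genes of a cluster share their regulation, and the difference between the classes was not tested. Scaling at the 75th percentile brought the maternal median to 0.03 and the paternal one to -0.04, while the median over all genes moved to -0.06. Over the 10 other ways of processing the maternal median ran from 0.03 to 0.21 and the paternal one from -0.09 to 0.01.

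**Figure D4:**
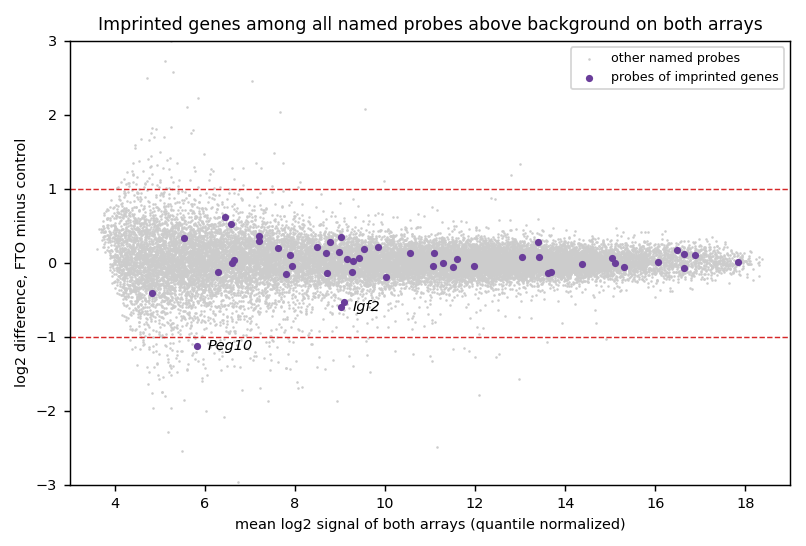
Log2 difference, FTO-labelled minus control-labelled array (vertical), against the mean log2 intensity of both arrays (horizontal) for 23273 named probes above background on both arrays (grey) with the probes of the imprinted genes in purple, dashed lines at a 2-fold difference and 4 probes outside the plotted range. The purple points follow the grey cloud, which widens at low intensity, and Peg10 and Igf2 lie in its lower part.

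Probes of a gene gave a further view of the spread. Of the 51 probes above background 31 lay above 0 and 20 below. For 15 genes with several such probes the range between probes had a median of 0.13, from 0.02 (Asb4) to 0.65 (Plagl1), and the probes shared a sign in 7 genes and differed in sign in 8. Probes can read different transcript ends, and which transcripts they read was not tested. The 9 probes in blocks of lost signal of the FTO-labelled array had a median difference of 0.28, and the other probes of the list a median of 0.01. Over all named probes tested the medians inside and outside these blocks were 0.03 and 0.006, and the part of the blocks in these values was not tested.

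A further 40 genes named as imprinted in mouse, taken as a separate list, gave the wider setting. Of these 38 had a matched probe, and 36 were tested, 35 of them above background on both arrays. Their median difference was 0.05, with 22 above 0 and 14 below, where 51.6% of all genes tested lay above 0. Rtl1, a retrotransposon-derived gene of the Dlk1-Meg3 cluster that is paternally expressed, was the only gene of this list past 2-fold. Of all genes tested 2.68% were past 2-fold. Before normalization its spot read 31.0 on the FTO-labelled array and 6.38 on the control-labelled array, where it was not well above background. Rtl1 was thus tested only through the FTO-labelled array, and it dropped out when both arrays had to pass. With its normalized intensity set against the lowest one well above background on the control-labelled array, Rtl1 was 3.04-fold higher. That ratio is not a lower limit under other processing. With signals raised to that lowest level before normalization the log2 difference was 1.40, and with normexp it was 0.47. Its neighbours Dlk1, Meg3 and Mirg were near 0, as described with that cluster. Zrsr1, a paternally expressed relative of the U2 auxiliary splicing factor, had the lowest normalized difference at -0.63 with a spot error of 0.20. Its signals before normalization were 5454 and 6284. The difference stayed between -0.64 and -0.58 over the other ways of processing. Scaling at the 75th percentile took the median of this list to -0.12.

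The factors that set or keep imprints were all measured. The 20 genes, which include the DNA methyltransferases, the zinc finger protein Zfp57, its partner Trim28 and the Tet enzymes that oxidize methylcytosine, were above background on both arrays. Their median difference was 0.02, with 12 above 0 and 8 below and none past 2-fold in either direction. Of all genes tested 51.6% lay above 0 and 2.68% were past 2-fold. Dnmt3l, a cofactor for methylation in germ cells, was the lowest, at signals before normalization of 430 and 423 and a normalized difference of -0.31 with an error of 0.20. Tet2 was the highest, at 1837 and 1198 before normalization and a normalized difference of 0.23 with an error of 0.20. These were the only genes of the list to exceed their spot error, where 28.6% of all genes tested did. Zfp57, which reads the TGCCGC letters when methylated, was at 636 and 519 before normalization. Its difference after normalization was -0.05.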

How the data were processed

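Total RNA of each culture was labelled with Cy3 and hybridized to a whole mouse genome array. The deposited spot tables hold intensity, from which the authors' Feature Extraction 11.0.1.1 had removed background and spatial trend. The deposited processed table holds log2 values that the authors quantile normalized in GeneSpring GX, and it served as an alternative.

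Control spots and outlier flags were left out (148 and 141 spots). Spots of a probe were averaged as log2 intensity before quantile normalization by limma 3.58.1 (R 4.3.3). Tables and figures used Python 3.11.15, pandas 2.3.3, numpy 2.4.6 and matplotlib 3.10.9. Accessions were matched to symbols of GRCm38.p6, which named 27224 of 39417 probes. Genes were tested at their brightest probe among those well above background on 1 array or both, and called past 2-fold. All listed members were named, and genes of other lists where past 2-fold, highest or lowest. Zfp57, the markers named and the genes of other lists given with the clusters were named by choice after values were seen. As with the members, the other lists were chosen with earlier results of these data known. Signal was taken as lost in a block if 15% or more of its spots of repeatedly printed, low to middle probes lay over 0.5 (log2) below their probe's median. Scripts were tested on simulated data. With 1 array per condition no p-value was computed. The alternatives were scaling at the 75th percentile, cyclic loess, normexp on median signals with an offset of 50, the processed table, a stricter and no background filter, a floor, the mean or the most different probe of a gene, and leaving out blocks of lost signal.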

Additional observations from a re-analysis of the deposited data

How the results depend on the processing

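Of the 10 alternatives, 3 (the background filters and the floor) left the value of every listed gene as it was, and the processed table repeats the same normalization. Under the remaining 6, 161 of 179 values of single genes moved by less than the spot error and 18 by more. Many of the 161 did not move at all. Unchanged were 15 of 30 values with the mean of probes, 19 of 30 with the most different probe and 25 of 29 without lost blocks. A gene with 1 usable probe cannot move under the first 2 of these. Peg10, the single called gene, was unchanged in them and kept its sign under scaling (-1.42), cyclic loess (-1.14) and normexp (-0.43). The number of genes past 2-fold was 1 in the values reported and 0 under normexp with an offset of 50. That alternative changed the input signal, the background correction and the offset together, and the cause was not tested. Scaling at the 75th percentile split the genes past 2-fold over the whole arrays into 125 higher and 606 lower, against 201 and 296 after quantile normalization, and it shifted the median of all genes to -0.06. The median of the 30 genes ran from 0.001 to 0.06 and the number above 0 from 15 to 19. The median of the other imprinted genes was -0.12 under that scaling, and the cause was not tested. No paired analysis was possible because each condition has 1 array. The single array per condition limits every value, and low signals, as for Peg10, Grb10 and Phlda2, limit it further.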
